A study of Mus musculus with 35 samples.

Results

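Hard keratins are the structural proteins of hair, nail and other hardened epithelia. Of the 7 hard keratin genes chosen by name, 6 had a row in the tables and are described here, out of 47436 gene names that all tables share: Krt31, Krt35 and Krt36, which are type I (acidic) keratins, and Krt84, Krt86 and Krt90, which are type II (basic) keratins. They were picked by name, with earlier results of these data known, and no threshold on a measured value was applied. A keratin filament is built from pairs of one type I and one type II protein, and hard keratins differ from the soft keratins of the epidermis by cysteine-rich end domains that become cross-linked by disulfide bonds. Outside hair and nail, hard keratins are known from the scales of mouse tail epidermis, which alternate with softer interscale epidermis, and from the filiform papillae of the tongue, the small horny projections on its upper surface.

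The 35 libraries were made from sorted epithelial cells of C57BL/6J mice aged 2 months, and every group carried both transgenes, K5-tTA and pTRE H2B-GFP. In these mice the keratin 5 promoter drives a tetracycline-controlled activator that switches on a histone-GFP fusion, and doxycycline in the chow stops its synthesis, after which the label is diluted at each division. The label therefore reports only on cells in which the keratin 5 promoter was active. Cells that retained label (label-retaining cells, LRC, which the submitters call slow-cycling) and those without it (nLRC, fast-cycling in their wording) came from the basal layer of tongue and of palate (2 libraries in each group, doxycycline for 10 days) and of tail skin and of back skin (3 libraries in each group, doxycycline for 2 weeks). Tail bulge, back bulge, back granular layer and the LRC and nLRC of the back spinous layer gave 3 libraries each, also after 2 weeks. The bulge is the part of the hair follicle that houses its stem cells. Whether libraries of 1 group stem from different animals is not stated in the labels, and each p-value here is therefore set against the spread among libraries alone, which may be technical.

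The total of gene reads in a library was 11847897 to 13034075 in tongue, 11680595 to 15641556 in palate, 8421582 to 14093720 in tail and 9785944 to 20560481 in back skin. Levels are given as TPM, a unit scaled to exon length and depth that the authors computed, so that levels of different genes can be set side by side. Changes were tested on the counts of total gene reads. The sorted labels were checked by summed marker levels. The 5 basal markers summed to at least 8375 TPM in every library, a floor that does not tell layers apart. In back skin they summed to 54185 to 83641 TPM in basal, 17180 to 35215 TPM in spinous and 8375 to 11222 TPM in granular libraries. The 4 spinous markers summed to 4276 to 9887 TPM in back spinous nLRC, overlapping the 4333 to 7220 TPM of back basal layer. Their 24031 to 40518 TPM in back spinous LRC overlapped the 26131 to 34720 TPM of the granular layer. The 6 bulge markers summed to 3657 to 7077 TPM in tail bulge against 334 to 3105 TPM in tail basal layer. The 5 oral markers summed to 1460 to 12447 TPM in tongue and palate against at most 8.3 TPM in every skin library. In back skin the sum of the bulge markers did not separate the groups, with 3701 to 19332 TPM in back bulge against 5978 to 12852 TPM in back basal layer. Tested gene by gene on counts, 5 of the 6 were higher in back bulge and 0 lower, with a median log2 fold change of 3.97. Cd34, the surface marker that defines the bulge, was at 48.6, 63.3 and 72.7 TPM in tail bulge and at 0.00 to 0.17 TPM in tail basal layer, and at 71.4 to 693 TPM in back bulge against at most 0.37 TPM in back basal layer. Palate nLRC library 2 and back bulge library 2 stood apart from the other libraries, with 13.02% and 19.4% of the reads of a median long-intron gene outside exons, against 28.5 to 66.2% in all others.

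Of the 6 genes, 2 were present in tail and tongue and nearly absent elsewhere. Krt36 and Krt84 were at over 4 TPM in every tail and tongue library and under 1 TPM in every back skin and palate library. Krt90 instead had its highest level in tail bulge and was near 0 in tongue. Krt35 had its highest mean TPM in the back granular layer, but its highest mean of gene reads scaled to depth in tongue LRC. Krt31, a keratin of the hair cortex that is also used as a marker of tail scales, stayed at or under 2.96 TPM in all 35 libraries, and Krt86, its usual type II partner in the hair cortex, at or under 1.91 TPM.

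The type I genes lie within a short stretch of chromosome 11 and the type II genes within a stretch of chromosome 15, all positions being those of build mm10 in the GENCODE annotation. Krt36 (ENSMUSG00000020916.8) spans chr11:100102007-100105626, Krt35 (ENSMUSG00000048013.9) spans chr11:100092193-100096241 and Krt31 (ENSMUSG00000048981.1) spans chr11:100046646-100050551, all on the minus strand, with 5765 bases between Krt36 and Krt35. Krt84 (ENSMUSG00000044294.8) spans chr15:101525026-101532820 and Krt90 (ENSMUSG00000048699.4) spans chr15:101552356-101562950, both on the minus strand and 19535 bases apart, while Krt86 (ENSMUSG00000067614.5) spans chr15:101473478-101479986 on the plus strand. Every member is a protein-coding gene, and reads were counted over the whole gene body. Of all 50-base stretches of the exons, 43.3% in Krt86 also occur in other genes (Krt81, Krt83 and Krt87), and 28.1% in Krt31 also occur in Krt33a, Krt33b and Krt34, so values of Krt86 and Krt31 are uncertain. That share was 3.58% in Krt90, 2.75% in Krt35, 0.432% in Krt36 and 0 in Krt84. Krt90 also overlaps the miRNA gene Gm44393.

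The 250 bases before the start of Krt36 and Krt84 are shown because these genes, on different chromosomes and of opposite keratin type, had nearly parallel levels, and those of Krt90 because its pattern was another one. The sequences are those of RefSeq (GRCm38.p6, the same assembly as mm10, minus strand, 5′ to 3′, ending at the base before the transcription start), which held 4 of the 6 members. Capitals mark TATATAA in Krt36, CATAAA in Krt84 and CTTTGA in Krt90, on the strand shown only. These letters were chosen after the sequences had been read.
Krt36, chr11:100105627-100105876: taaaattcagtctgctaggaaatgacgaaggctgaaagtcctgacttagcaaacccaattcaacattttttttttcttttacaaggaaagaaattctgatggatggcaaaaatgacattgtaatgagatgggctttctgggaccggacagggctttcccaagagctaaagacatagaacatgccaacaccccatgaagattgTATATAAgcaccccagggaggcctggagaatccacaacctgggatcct
Krt84, chr15:101532821-101533070: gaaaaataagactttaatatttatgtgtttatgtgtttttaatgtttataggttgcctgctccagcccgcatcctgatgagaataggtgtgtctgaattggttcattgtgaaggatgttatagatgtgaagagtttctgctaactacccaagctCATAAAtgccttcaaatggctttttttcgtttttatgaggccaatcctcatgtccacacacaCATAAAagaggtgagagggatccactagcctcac
Krt90, chr15:101562951-101563200: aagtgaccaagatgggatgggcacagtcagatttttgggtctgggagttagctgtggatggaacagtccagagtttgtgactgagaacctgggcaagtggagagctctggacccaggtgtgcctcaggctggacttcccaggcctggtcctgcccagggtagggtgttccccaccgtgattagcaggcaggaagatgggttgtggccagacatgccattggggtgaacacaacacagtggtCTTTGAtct
TATATAA, a form of the TATA box, stood at positions -48 to -42 of Krt36 and occurs on either strand in 3.04% of all 32851 promoter windows of this length. CATAAA stood at -96 to -91 and again at -34 to -29 of Krt84, and 10.8% of all windows hold it on either strand. On the other strand it stood at -231 to -226, -223 to -218 and -65 to -60 of Krt84 and at -158 to -153 of Krt31. TATAAA stood at -29 to -24 of Krt31 and on the other strand at -206 to -201 of Krt84, against 12.4% of all windows on either strand. CTTTGA, the core letters that LEF and TCF factors bind, stood at -9 to -4 of Krt90 and at -244 to -239 of Krt31, and in 13.8% of all windows. CTTTGT stood on the other strand at -80 to -75 of Krt31. Neither CTTTGA nor CTTTGT (16.5% of all windows), nor TAATTA (4.84%) or TAATTG (7.17%), core letters of homeobox factors such as those of the Dlx and Msx families, occurred on either strand in the windows of Krt36 and Krt84. The windows of Krt36 and Krt84 had 42.8% and 38.8% G and C bases and that of Krt90 55.6%, against a median of 52.4% over all windows. No letters were assigned to homeobox factors of other families. A match of letters is a description and shows no binding, and a missing match shows no lack of it.

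**Figure D1:**
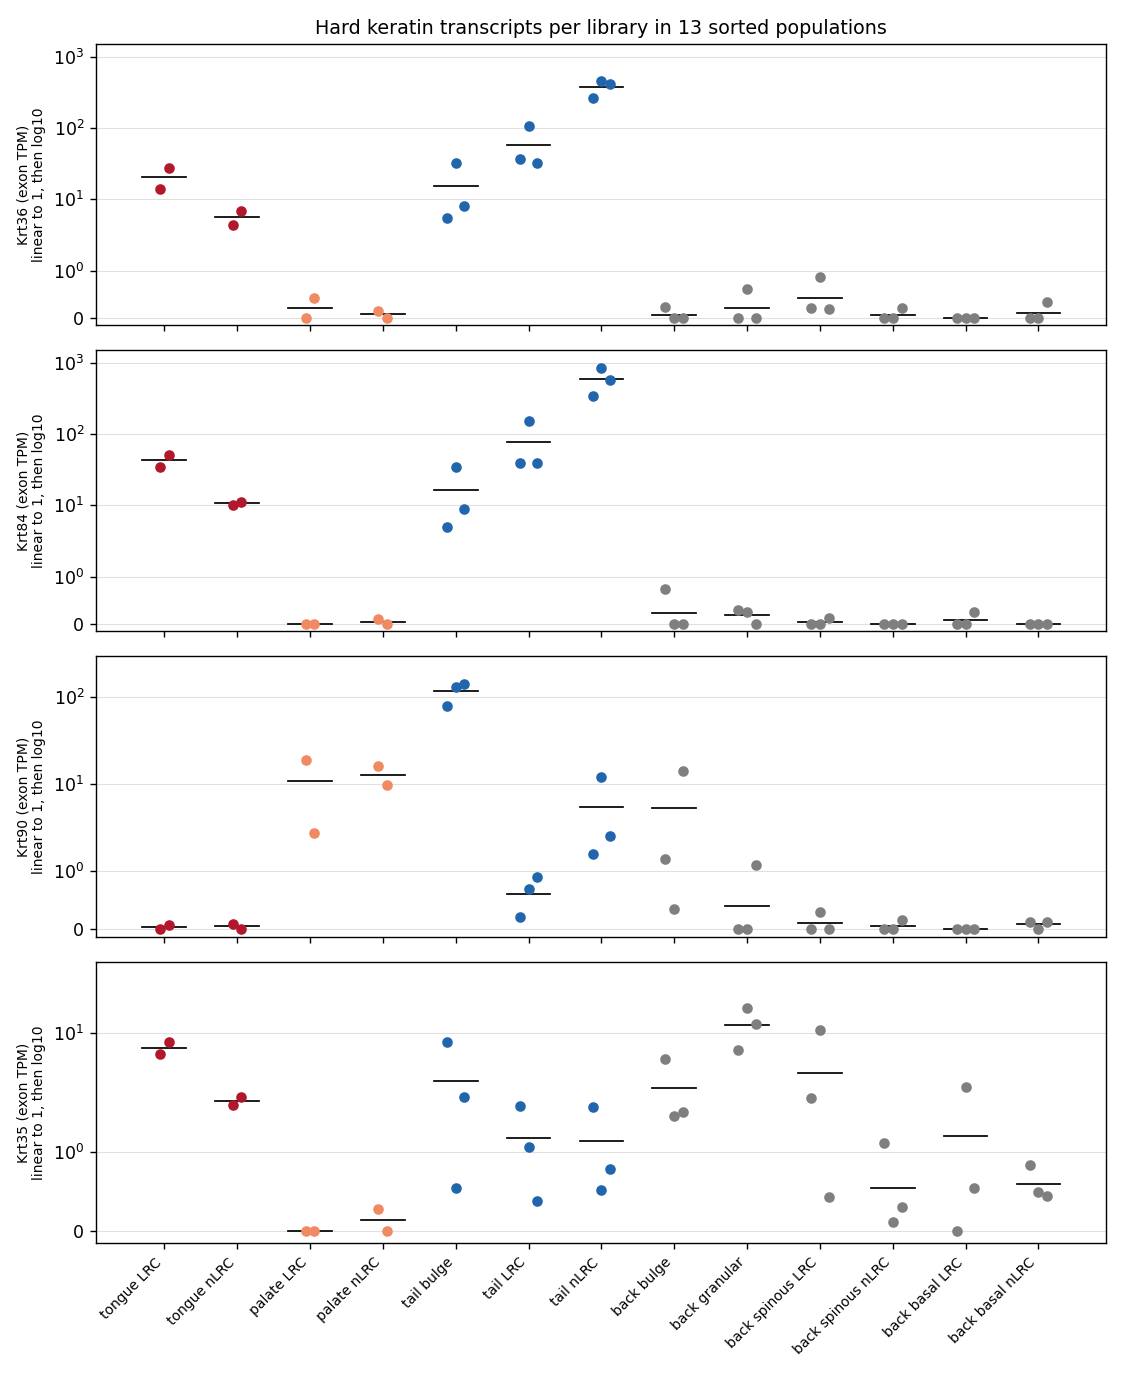
Exon TPM of Krt36, Krt84, Krt90 and Krt35 (one panel each; the axis is linear up to 1 TPM and log10 above) in the 13 sorted populations; each point is a library and each black bar a group mean. Krt36 and Krt84 were at 4.34 TPM or more in all tongue and tail libraries and under 1 TPM in palate and back skin, while the highest Krt90 values were the 80.2 to 144 TPM of tail bulge.

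Krt36, a type I keratin known from hair, nail and tongue, was highest in nLRC of the tail. It stood at 36.9, 107 and 32.1 TPM in tail LRC, against 264, 462 and 413 TPM in tail nLRC. All 3 LRC libraries lay under all 3 nLRC libraries. In tongue it stood at 14.1 and 27.4 TPM in LRC, against 4.34 and 6.95 TPM in nLRC, so there both LRC libraries were the higher ones. Tail bulge had 5.41, 32.8 and 8.12 TPM. No palate library exceeded 0.42 TPM and no back skin library 0.87 TPM. By mean level the order was tail nLRC (379.8 ± 102.9 TPM), tail LRC (58.7 ± 42.0 TPM), tongue LRC (20.7 ± 9.4 TPM), tail bulge (15.5 ± 15.1 TPM) and tongue nLRC (5.65 ± 1.85 TPM; SD, n = 3 for tail and 2 for tongue groups). The ranges of tongue LRC and tail bulge overlapped, as did those of tail bulge and tongue nLRC; the other neighbours among these 5 groups did not overlap.

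Krt84, a type II hard keratin known from nail, hair and tongue papillae, followed the same order. It stood at 38.9, 151 and 39.2 TPM in tail LRC, against 345, 833 and 573 TPM in tail nLRC, and at 34.8 and 51.2 TPM in tongue LRC, against 10.2 and 11.2 TPM in tongue nLRC. LRC were thus the lower libraries in tail and the higher ones in tongue, with no overlap in either tissue. Tail bulge had 4.95, 34.9 and 8.92 TPM. Krt84 was listed at 0 in both palate LRC libraries and in all libraries of back basal nLRC and back spinous nLRC, and at no more than 0.73 TPM in any other palate or back skin library. Library 2 held the highest level of both genes in each of the 3 tail groups.

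The ratio of Krt84 to Krt36 in TPM was 0.915 to 1.80 over the 9 tail libraries (median 1.22) and 1.61 to 2.48 over the 4 tongue libraries (median 2.11). Pearson's r of log2(TPM + 1) between both genes was 0.998 over the 9 tail libraries and 0.970 over the 4 tongue libraries, a description of libraries that share tissue and sort. Reads outside exons made up 2.79 to 8.46% of Krt36 reads and at most 1.36% of Krt84 reads in the tail and tongue libraries in which they could be estimated.

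**Figure D2:**
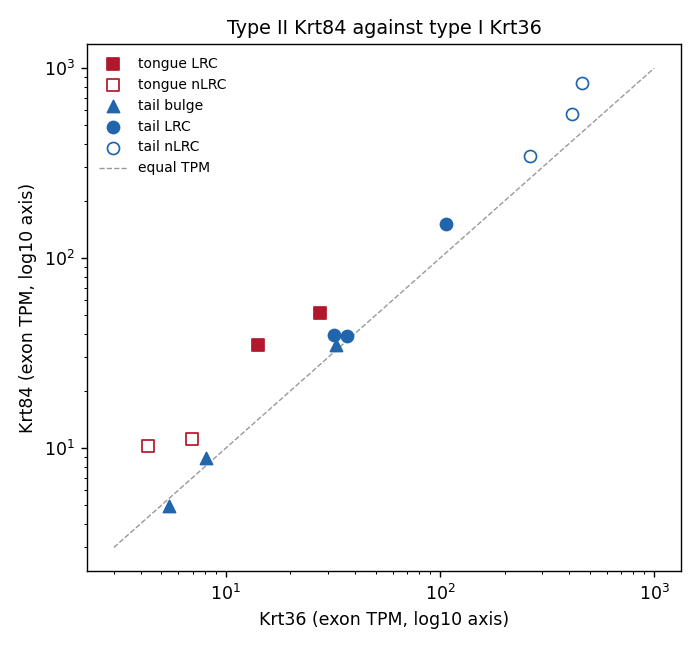
Krt84 against Krt36 in exon TPM (both axes log10) for each tongue and tail library; filled symbols are LRC or bulge, open symbols nLRC, and the dashed line marks equal TPM. Points run parallel to that line, with ratios of 1.61 to 2.48 in tongue and 0.915 to 1.80 in tail.

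Tail LRC had less Krt36 and Krt90 RNA than tail nLRC, in which 690 of 14993 genes (4.6%) passed edgeR's quasi-likelihood test at a Benjamini-Hochberg adjusted p under 0.05 in either direction. Among the 5 members that could be tested, 2 passed, both lower in LRC, a direction in which 1.48% of all genes passed, with a median log2 fold change of -3.13 over the 5, against 0.02 over all genes tested. Krt36 fell by 3.13 ± 0.73 on the log2 scale (SE; adjusted p = 0.0390), which is 8.76-fold. Krt84 had a log2 fold change of -3.37 ± 0.84 and missed the threshold (adjusted p = 0.0518). With the replicate number as a block, which pairs these libraries, Krt84 also passed, at -3.65 (adjusted p = 0.000640), and Krt36 had an adjusted p of 0.00123. The Krt36 call rested on few libraries: it was lost, with adjusted p of 0.0761 to 0.155, when any 1 of LRC 1, LRC 3 and the 3 nLRC libraries was left out. DESeq2, another test on counts, gave Krt36 a log2 fold change of -3.14 but no p-value. Tail libraries numbered 3 carry another series code in the names of their tables than numbers 1 and 2, and with numbers 1 and 2 alone the log2 fold changes were -2.90 for Krt36 and -3.18 for Krt84 (adjusted p = 0.223 and 0.249). In bulk samples, fewer cells that express a gene and less RNA per cell cannot be told apart.

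Krt90 was low in both tail basal groups and still differed between them. It stood at 0.20, 0.69 and 0.90 TPM in LRC (26 reads in all), against 1.55, 12.2 and 2.49 TPM in nLRC (310 reads). Both groups were far under the tail bulge, and they did not overlap. The log2 fold change was -3.92 ± 0.79 (adjusted p = 0.0200), and -2.70 (adjusted p = 0.0193) without nLRC library 2, whose Krt90 reads were 30.7% from outside exons. It missed the threshold without LRC 1 (adjusted p = 0.0618) or LRC 3 (0.0744), and on log2(TPM + 1) it was -1.64 (adjusted p = 0.118). Krt35, a type I keratin of the hair matrix, had 2.43, 1.10 and 0.38 TPM in tail LRC, against 2.39, 0.52 and 0.79 TPM in tail nLRC; its log2 fold change of -0.40 did not pass. Krt31 did not pass either, with 31 reads in LRC and 14 in nLRC.

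Transcription factors known from hair keratin control moved in the same comparison. Of 11 tested in a list of 12, 5 were lower in tail LRC and 1 was higher. Hoxc13, the homeobox factor that binds and activates hair keratin genes, stood at 6.77, 9.62 and 5.63 TPM in LRC, against 18.3, 42.1 and 23.5 TPM in nLRC (log2 fold change -2.39 ± 0.27, adjusted p = 0.00105). Dlx3, a homeobox factor needed for the hair shaft, had 1.41, 2.78 and 1.83 TPM in LRC, against 14.5, 34.2 and 19.9 TPM in nLRC (-3.95 ± 0.35, adjusted p = 0.000252). Foxn1, the factor lost in nude mice, had -1.65 ± 0.24 (adjusted p = 0.00342), Msx2 -3.29 ± 0.32 (adjusted p = 0.000411) and Foxq1 -1.43 ± 0.32 (adjusted p = 0.0332), while Vdr, the vitamin D receptor, was 1.04 ± 0.13 higher (adjusted p = 0.00177). Each of the 3 nLRC libraries lay over each LRC library for Hoxc13 and Dlx3.

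Other genes of hair shaft and hardening showed fewer calls. Of 24 genes of the hair shaft and its sheath in the tables, 7 could be tested in tail LRC against nLRC: Krt26, a sheath keratin, was higher (4.58 ± 0.86), Selenbp1, a selenium-binding protein, was lower (-3.34 ± 0.36), and 5 passed in neither direction. Krt26 was listed at 0 TPM in all tail nLRC libraries, so the size of its fold change is uncertain. The hair shaft list summed to 21.9 to 25.8 TPM in LRC, against 82.0 to 116 TPM in nLRC, and Selenbp1 alone stood at 6.67, 14.4 and 9.99 TPM, against 50.7, 101 and 87.1 TPM. Of the keratin-associated proteins in that list, Krtap4-16, Krtap16-3, Krtap19-1 and Krtap24-1 were listed at 0 in all 6 libraries. None of 2 other hard keratins that could be tested (of 10) and none of 6 tested enzymes and partners of keratin hardening (of 13) passed.

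Among 15 tested soft keratins of epidermis and mouth, 4 were higher in tail LRC (Krt80, Krt15, Krt79 and Krt1) and 3 lower (Krt75, Krt14 and Krt5). Krt5, whose promoter drives the label, had -1.08 ± 0.25 on the log2 scale (adjusted p = 0.0410). Of 6 bulge markers, 5 were higher in LRC (Sox9, Lhx2, Nfatc1, Krt15 and Tcf7l1), and the list summed to 1619 to 3105 TPM in LRC, against 334 to 613 TPM in nLRC, while Cd34 was at 0.03, 0.17 and 0.04 TPM in LRC. Spinous markers summed to 5184 to 5918 TPM in LRC, against 1941 to 2971 TPM in nLRC, with 1 of 4 (Krt1) past the test. The part of these populations in the keratin values was not tested. Krt2, Krt10, Slc1a3, Dlx1 and Krt31, a mixed list of tail scale and interscale markers, could all be tested and none passed. The list still summed to 2972 to 3835 TPM in LRC, against 1345 to 2531 TPM in nLRC. Krt10 is also one of the spinous markers, and the median log2 fold change of the list was -0.28. The part of scale and interscale cells in the keratin values was not tested.

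Tongue LRC had more Krt36, Krt84 and Krt35 RNA than tongue nLRC in both libraries, but no member passed the test. A single gene of the 14923 tested (0.0067%) passed here, against 696 before adjustment at p under 0.05. Krt84 was 2.26 ± 0.37 higher on the log2 scale (adjusted p = 0.145), Krt36 2.13 ± 0.62 (adjusted p = 0.573) and Krt35 1.66 ± 0.59 (adjusted p = 0.833), over 1421 against 301, 463 against 109 and 231 against 74 reads. Krt35 stood at 6.67 and 8.53 TPM in tongue LRC, against 2.50 and 2.94 TPM in tongue nLRC. DESeq2 called Krt84 (adjusted p = 1.49e-05) and Krt36 (0.0442), and the fit with a replicate block gave Krt84 an adjusted p of 0.0506. Krt32, a type I hard keratin of the hair cuticle, had 21.4 and 19.4 TPM in LRC, against 8.22 and 11.1 TPM in nLRC, and did not pass either. No gene of the transcription factor, hair shaft, hardening or soft keratin lists passed in tongue.

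The direction of the difference between LRC and nLRC was opposite in tail and tongue, and that contrast itself passed the test. As a difference of log2 fold changes, tail minus tongue, it was -5.30 ± 0.77 for Krt36 (adjusted p = 0.00218) and -5.68 ± 0.75 for Krt84 (adjusted p = 0.00157). Among the 5 members tested 2 passed, both with a lower LRC effect in tail, against 205 of 17103 genes (1.2%) in either direction and 0.392% in this one. Both calls held in all 8 other settings that gave them a value and without any 1 of the 20 basal libraries, with values of -5.95 to -4.46 for Krt36 and -6.51 to -5.06 for Krt84 in those leave-outs. Krt35 had -2.10 (adjusted p = 0.549). The time on doxycycline differed between tail (2 weeks) and tongue (10 days), so tissue and chase time cannot be told apart.

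Of the 11 transcription factors tested, 3 had an LRC effect that was lower in tail than in tongue and none a higher one. Hoxc13 had a difference of -3.06 ± 0.50 (adjusted p = 0.00411), with 2.99 and 2.95 TPM in tongue LRC, against 2.14 and 2.01 TPM in tongue nLRC. In Hoxc13, as in Krt36 and Krt84, LRC were the lower libraries in tail and the higher ones in tongue. Foxn1 had -1.76 ± 0.33 (adjusted p = 0.00857) and Dlx3 -3.35 ± 0.73 (adjusted p = 0.0289); Dlx3 stood at 9.98 and 15.4 TPM in tongue LRC, against 21.2 and 25.5 TPM in tongue nLRC, so that LRC were lower in both tissues. In the hair shaft list 1 of 9 tested passed, Selenbp1 (-3.91 ± 0.42, adjusted p = 0.000179). Krt5 was the 1 of 18 soft keratins that passed (-1.65 ± 0.34), and none of 4 other hard keratins or 10 hardening genes did. Sox9 passed with a higher LRC effect in tail (4.75 ± 0.57). The fibroblast list summed to 26.4 to 77.0 TPM in tongue LRC, against 122 to 153 TPM in tongue nLRC, nearly all of it Dcn (26.4 to 153 TPM), with Col1a1, Col1a2, Col3a1, Lum and Pdgfra at no more than 0.09 TPM; its part in the result was not tested.

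**Figure D3:**
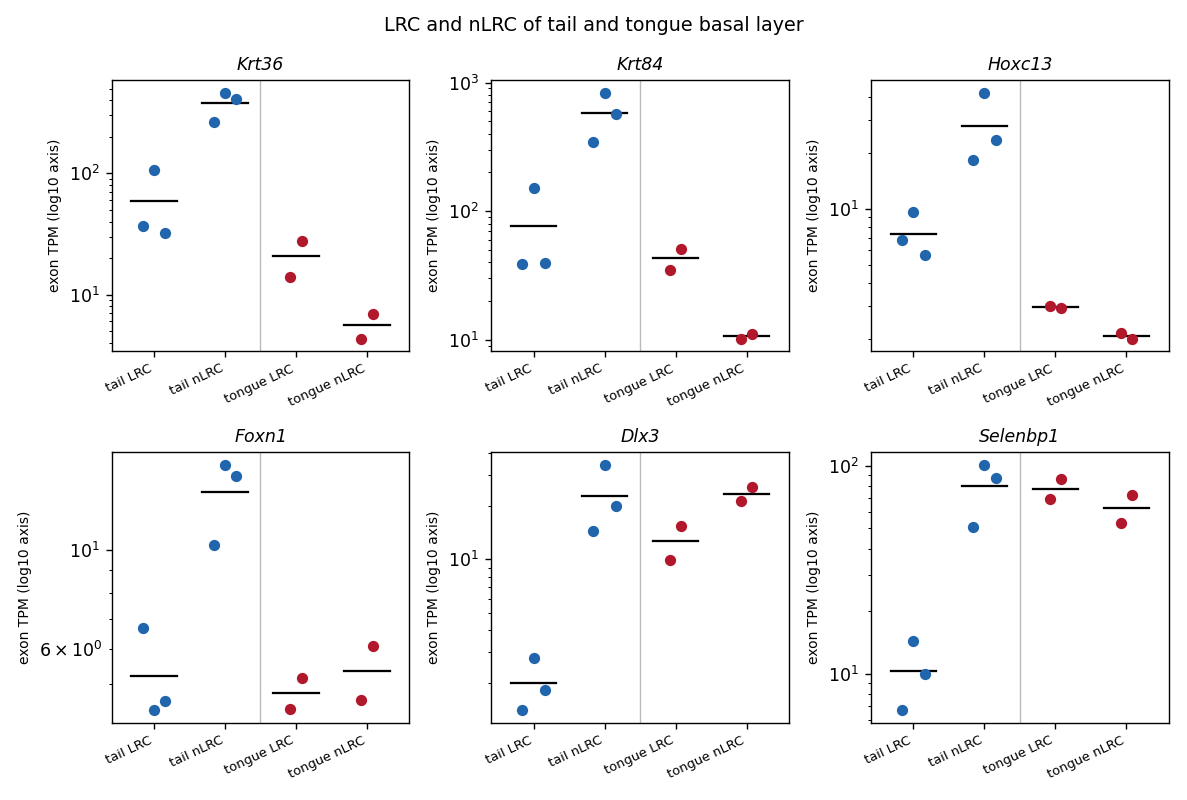
Exon TPM (log10 axes) of Krt36, Krt84, Hoxc13, Foxn1, Dlx3 and Selenbp1 in LRC and nLRC of tail (blue) and tongue (red) basal layer; each point is a library and each bar a group mean. Krt36 ran from 32.1 to 107 TPM in tail LRC, under the 264 to 462 TPM of tail nLRC, and from 14.1 to 27.4 TPM in tongue LRC, over the 4.34 to 6.95 TPM of tongue nLRC.

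Set against the whole tail basal layer, the tail bulge had far more Krt90 and less Krt36 and Krt84. Krt90 stood at 80.2, 130.5 and 144 TPM in tail bulge, the highest levels of this gene in the series, against the 0.20 to 12.2 TPM of the tail basal libraries. Its log2 fold change was 5.94 ± 0.53 (61.4-fold, adjusted p = 2.71e-05), over 4402 against 336 reads. Krt36 had -2.85 ± 0.69 (adjusted p = 0.0133) and Krt84 -3.27 ± 0.80 (adjusted p = 0.0137), which was lost without tail bulge library 3 (adjusted p = 0.0518). Thus 3 of 5 tested members passed, against 24.6% of 14993 genes. Against LRC alone, in which 19.1% of genes passed, Krt90 was the 1 member that passed (7.90 ± 0.79, 238.8-fold), while Krt36 had -1.28 and Krt84 -1.59 (adjusted p = 0.257 and 0.210). Against nLRC alone, in which 23.3% passed, all 3 did, Krt36 with -4.41, Krt84 with -4.95 and Krt90 with 3.98. With tail libraries 1 and 2 alone Krt90 was the 1 member that passed.

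Krt35 did not pass in tail bulge: its 8.53, 0.55 and 2.93 TPM overlapped the 0.38 to 2.43 TPM of the basal libraries. Of 11 hair keratin transcription factors, 3 were higher in tail bulge (Vdr, Lef1 and Hoxc12) and 5 lower. Lef1, a nuclear effector of Wnt signalling, was 2.42 ± 0.35 higher, Foxn1 had -3.22 ± 0.26 and Hoxc13 -0.85 ± 0.24 (adjusted p = 0.0284). In the hair shaft list S100a3 was higher and Selenbp1 and Tchh were lower, of 7 tested. Among hardening genes Tgm5 was higher and Tgm3 and Hrnr were lower, of 6. Soft keratins split into 4 higher, led by Krt75 (5.14 ± 0.29), a keratin of the follicle's companion layer, and 7 lower, led by Krt10 (-5.03 ± 0.19), of 15. All 6 bulge markers were higher. Endothelial Pecam1 stood at 16.5, 4.20 and 23.1 TPM in tail bulge, against at most 0.19 TPM in tail basal libraries, and fibroblast Col1a1 at 5.97, 3.16 and 3.28 TPM, against at most 0.08 TPM. The part of these cells in the result was not tested. Within the tail bulge, Krt90 was highest in library 3 by TPM but in library 2 by gene reads scaled to depth.

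**Figure D4:**
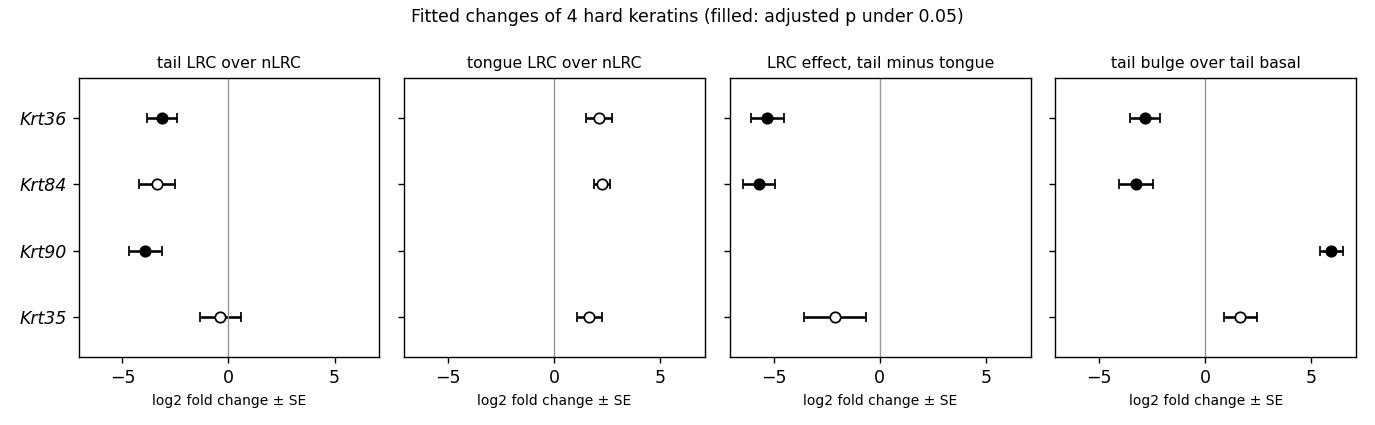
Fitted log2 fold changes with SE (edgeR) of Krt36, Krt84, Krt90 and Krt35 in 4 comparisons; filled points passed an adjusted p of 0.05, open points did not, and Krt90 is left out where tongue had 3 reads in all. Krt36 and Krt84 lie left of 0 in tail and right of 0 in tongue, and Krt90 reaches 5.94 in tail bulge.

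In the mouth, Krt90 was higher in palate, and Krt35, Krt36 and Krt84 were higher in tongue. Krt90 stood at 18.9 and 2.72 TPM in palate LRC and at 16.0 and 9.65 TPM in palate nLRC, so that its groups overlapped (log2 fold change of LRC over nLRC -0.70 ± 0.64, adjusted p = 0.698). None of 4 tested members passed between palate LRC and nLRC. There 0 of 14923 genes passed (0%) with edgeR, with 1082 at an unadjusted p under 0.05, and DESeq2 called no member either. Krt35, Krt36 and Krt84 had at most 5 reads in either palate group. They passed the low-count filter only through the tongue libraries of the same fit, so for them that count says nothing of an LRC effect in palate. The 4 tongue libraries held 3 Krt90 reads in all, against 941 in the 4 palate libraries, 303-fold fewer after scaling to depth (95% counting interval 103 to 1473, which covers counting error only).

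For tongue over palate, 4 of 5 tested members passed, 3 higher and 1 lower, against 10.8% of 17103 genes, 5.47% higher and 5.36% lower. Each of these 4 members had at most 7 reads on its lower side. They passed the low-count filter only through other libraries, so the count is a description. Krt35 was 7.04 ± 1.27 higher on the log2 scale (adjusted p = 0.00159), over 305 against 5 reads, and Krt36 6.11 ± 0.75 (adjusted p = 7.79e-05), over 572 against 7 reads. Krt84 had 1722 reads in tongue and 2 in palate, a ratio of 890.5 after scaling to depth (95% counting interval 246 to 7359). Krt32 was the 1 of 4 tested other hard keratins that passed (2.16 ± 0.42 higher in tongue, adjusted p = 0.00263). Hoxc13, with 2.01 to 2.99 TPM in tongue and at most 0.06 TPM in palate, was 7.31 ± 0.62 higher (adjusted p = 1.13e-06), Lef1 1.90 ± 0.31 higher and Msx2 lower (-2.07 ± 0.27), while the other 8 transcription factors passed in neither direction. No gene of 9 tested in the hair shaft list passed, and of 10 hardening genes Tgm1, a transglutaminase, and Rptn, repetin, were higher (2.34 ± 0.41 and 3.16 ± 0.54).

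Between mouth and tail the members divided again. For tongue over tail basal layer, 3 of 5 tested members passed, all lower, against 28.6% of 17103 genes in either direction and 15.3% lower. Krt36 had a log2 fold change of -3.57 ± 0.41 (adjusted p = 6.94e-06), Krt84 of -3.14 ± 0.39 (adjusted p = 2.49e-05) and Krt90 had 3 reads against 336. Krt35, at 1.87, missed the threshold (adjusted p = 0.0606) and passed when any 1 of tail LRC 1, tail nLRC 1, back basal LRC 1 and back basal LRC 2 was left out (adjusted p = 0.0220 to 0.0337). For palate over tail, 4 of 5 passed, against 26.9%: Krt90 was 2.78 ± 0.55 higher (adjusted p = 0.00132), while Krt35 had -5.17 ± 1.28 (adjusted p = 0.00648), Krt36 -9.68 ± 0.67 and Krt84 2 reads against 26755. Both comparisons share the 6 tail libraries. Krt90 in tongue and Krt35, Krt36 and Krt84 in palate had at most 7 reads. There they passed the low-count filter only through other libraries, so these counts of members are descriptions.

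In back skin few reads came from these genes. For tail over back basal layer, 4 of 5 tested members passed, all higher, against 58.3% of 17103 genes in either direction and 31% higher. Of these members, Krt36, Krt84 and Krt90 had at most 5 reads in back basal layer. They passed the low-count filter only through other tissues, so the count is a description and no measure against that share. The split of all genes into higher and lower depended on the scaling. Here limma on log2(TPM + 1) called 1951 genes higher and 10720 lower, with a median of -0.97 over all genes. With edgeR it was 5310 higher and 4659 lower, with a median of 0.07. The genes Zc3h7a, Peak1, Filip1l and Gphn together took 9.39 to 19.8% of reads in libraries outside back skin, against 0.0970 to 1.18% in those of back skin. They were summed on the assumption that their reads stem from ribosomal RNA, which was not checked. The part of this in the values was not tested. Tables of back skin and of the other tissues list different gene sets, so only names in common were compared. Krt36 had 11727 reads in the tail basal libraries against 5 in those of the back, Krt84 26755 against 2, Krt90 336 against 2 and Krt35 106 against 54 (log2 fold change 1.97 ± 0.71, adjusted p = 0.0245). On log2(TPM + 1) Krt35 was at 0.28 and did not pass (adjusted p = 0.398), and on log2(TPM + 0.1) at 0.80 (adjusted p = 0.281). Its call was also lost, with adjusted p of 0.0518 to 0.122, without any 1 of back basal LRC 3, back basal nLRC 3, tail LRC 1 and tail nLRC 1. In the back, Krt90 was nearly limited to the bulge, with 1.36, 0.34 and 14.3 TPM there and at most 1.15 TPM in any other back library, and 120 of its 137 bulge reads came from library 3. Its read ratio of bulge over basal layer was 183 (95% counting interval 49.6 to 1523), which rests on that library. Markers of other cells reached higher sums in back bulge: the 5 melanocyte markers summed to 6.77 to 344 TPM there, against at most 27.2 TPM in any other back library, and the 5 muscle and endothelial markers to 7.27 to 290.1 TPM, against at most 2.65 TPM. No marker of either list was at 0 in all back bulge libraries, and their part in the Krt90 and Krt35 values of back bulge was not tested. Krt36, Krt84 and Krt90 were too low to be tested within back skin. In the difference of LRC effects, tail minus back, 0 of 5 members passed with edgeR, against 2.71%, and 2328 genes had an unadjusted p under 0.05; for Krt36, Krt84 and Krt90, with at most 5 reads in back basal layer, that count says nothing of an LRC effect there.

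Krt35 had its highest group mean in the back granular layer by TPM, though not by gene reads scaled to depth. It stood there at 7.32, 16.3 and 12.0 TPM (11.9 ± 4.5, SD, n = 3). In spinous LRC it had 2.86, 10.7 and 0.43 TPM, and in spinous nLRC 0.12 to 1.20 TPM. Spinous LRC library 2 lay within the granular range and all other spinous libraries lay under it. For granular over spinous layer Krt35 was 2.88 ± 0.89 higher on the log2 scale (adjusted p = 0.0842), so that 0 of 2 tested members passed, against 4.01% of 16574 genes and 2646 genes before adjustment at p under 0.05. Krt35 passed without spinous LRC library 2 (adjusted p = 0.0365), without back bulge library 2 (0.0498) and with the replicate number as a block (3.14, adjusted p = 0.0266). In the same comparison 3 of 11 transcription factors rose (Prdm1, Dlx3 and Hoxc13, the last by 1.55 ± 0.37) and none fell. Bulge over basal layer gave Krt35 2.41 ± 0.91 (adjusted p = 0.0612; 0 of 2 members, against 26.3%), with 6.09, 2.03 and 2.19 TPM in back bulge, against 0.00 to 3.52 TPM in basal LRC and 0.45 to 0.84 TPM in basal nLRC. None of the 2 tested members passed for LRC over nLRC in back basal (0.235% of genes) or back spinous layer (15.5%), or for spinous over basal layer (9.07%); genes with an unadjusted p under 0.05 numbered 802, 4694 and 3320.

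Over the 13 groups, by mean TPM, Krt35 ranked granular layer (11.9 TPM), tongue LRC (7.60 ± 1.32 TPM), spinous LRC (4.68 ± 5.39 TPM) and tail bulge (4.00 ± 4.10 TPM) first, and each of these overlapped the next. By gene reads scaled to depth, tongue LRC had a higher mean of Krt35 than the granular layer. These groups held 90 and 141 reads, against 66, 115 and 79, and overlapped on that scale too. Krt31 was at 1.76 ± 1.13 TPM in tail bulge, its highest mean, and its neighbours in rank overlapped throughout. Krt86 was highest there too (1.04 ± 0.87 TPM, 28 reads) and passed the low-count filter in no comparison.

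Genes with the most similar levels over the 13 group means differed between members. By Pearson's r of log2(mean TPM + 1) among 11139 candidate genes, Krt36 was closest to Btg3 (0.854), Mettl6 (0.850) and Rpap3 (0.849), and Krt84 to Mettl6 (0.846), Ebag9 (0.832) and Riok1 (0.831). Krt90 was closest to the type I keratin Krt42 (0.897), the potassium channel gene Kcnma1 (0.871) and Krt8 (0.871), a keratin of simple epithelia that stood at 56.4, 70.0 and 55.0 TPM in tail bulge. Krt35 was closest to Ttc39c (0.836), Gcom1 (0.758) and Selenos (0.741). These values describe 13 means that differ in tissue, table and depth, and the closest genes of Krt36 and Krt84 were less like them than both were like each other (0.995).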

How the data were processed

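Sorted cells were lysed in Trizol and libraries made from total RNA with a stranded low-input kit, per the labels' protocols. The build is mm10, per the submitters' processing notes; which aligner, counter and gene annotation the authors used, and whether strand counted, is open, being not given in the sources used here. Per the file headers, the authors deposited for each library a count of total gene reads, TPM and RPKM per gene. The deposited counts include intron reads, whereas the authors' TPM and RPKM rest on exon reads; RPKM served only to estimate reads outside exons. Back skin tables list 53715 genes and the others 49585. Of the 7 genes chosen, 1 is not reported here.

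Counts were tested with edgeR 4.0.16 (R 4.3.3), quasi-likelihood, TMM scaling, a low-count filter by filterByExpr (counts of at least 10, totals of at least 15) and Benjamini-Hochberg adjustment over all genes of a fit, on the 9 tail, 8 oral, 18 back or 20 basal libraries, with group means only and equal weight for LRC and nLRC where a side holds both. Standard errors were taken as log2 fold change divided by the root of F. Read ratios use pooled reads scaled to depth, with exact 95% intervals for counting error. On simulated counts the fits recovered 82 to 92% of genes with a log2 change of 3 and 51 to 75% of those with 1.5. The simulated spread was taken from the trend of the same fits, so this is no check of the real spread. Each simulation held 100 changed genes of each size, so its recovery does not carry over to comparisons with few changed genes. Every pair of libraries in a group differed by more than sampling noise, with a chi-square of 21.1 or more for each degree of freedom. Depth is given as total gene reads; low counts limit Krt31, Krt86 and the members in back skin.

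Members and gene lists were chosen with earlier results of these data known. Text names all members, of each other list up to 4 genes with the smallest p past the test besides those of a short list named in full, and the 3 genes most like each member with a group mean of at least 5 TPM. Alternatives were the replicate number as a block, DESeq2 1.42.0, scaling by median of ratios, leaving low counts in, limma 3.58.1 on log2(TPM + 1) or log2(TPM + 0.1) for genes of at least 1 TPM or all genes, other sets of libraries, and each library left out. Deviations from group means of same-numbered tail LRC and nLRC libraries correlated at 0.559, 0.589 and 0.320, so these numbers were taken to pair them. The main fit still used no block, and the paired values are given as an alternative. Same-numbered back basal, spinous and granular libraries correlated at 0.199 to 0.404, a range that holds the lowest tail value. No label says what a number stands for.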

Additional observations from a re-analysis of the deposited data

Results flagged for a closer look

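Krt36 and Krt84 drew attention because the difference between LRC and nLRC itself differed between tail and tongue, by a test of that difference: tail minus tongue, it was -5.30 on the log2 scale for Krt36 and -5.68 for Krt84. Each tail LRC library lay under each tail nLRC library, and each tongue LRC library over each tongue nLRC library, in both genes. No group held 4 or more libraries, so no single library was tested against the rest of its group.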

How the results depend on the processing

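The differences of LRC effects between tail and tongue kept 2 called members, and tongue over palate 4, under every alternative run. In tail LRC against nLRC 0 members passed with limma on log2(TPM + 1) without a filter or with tail libraries 1 and 2 alone, and 0 to 3 with a library left out. For tail bulge against basal layer 1 passed with tail libraries 1 and 2 alone or against LRC alone, and 2 to 3 with a library left out. Tongue LRC against nLRC gave 2 with DESeq2 or without a filter and 0 to 1 in leave-outs. Krt35 made up the 1 call with DESeq2 in back spinous LRC against nLRC, and the 1 call in back bulge (DESeq2, no filter, replicate block; 0 to 1 in leave-outs) and in back granular layer (DESeq2, no filter, replicate block, limma on log2(TPM + 1), only the groups compared; 0 to 1 in leave-outs). The LRC effect in tail minus back gave 1 without a filter or with limma on log2(TPM + 0.1) and 2 with limma on log2(TPM + 1), filtered or not; back basal layer held at most 5 reads of Krt36, Krt84 or Krt90. Without a filter edgeR gave implausibly small p-values (adjusted p = 2.11e-52 for Krt84 in tail LRC), so calls from that setting are given but not relied on. The causes of these shifts were not tested.

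With the replicate block, the calls of all genes rose to 2055, against 690, in tail LRC over nLRC, to 1197, against 664, in back granular over spinous layer, to 1107, against 463, for tail minus back and to 842, against 205, for tail minus tongue. Smaller counts became 29, against 1, in tongue LRC, 6, against 0, in palate LRC and 95, against 39, in back basal LRC, and tongue over palate gave 3289, against 1852. The block added Krt84 in tail LRC (-3.65), and Krt35 in tail bulge (1.46, adjusted p = 0.0268), back bulge (2.49, adjusted p = 0.0282), back granular layer (3.14) and tongue over tail (2.21, adjusted p = 0.00385), and changed no other member call. In tongue, same-numbered libraries correlated at 0.062, so numbers were not taken to pair them, and in bulge against basal layer not every correlation passed 0.1.

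Over all alternatives the share of genes called ranged from 0.894 to 13.7% in tail LRC over nLRC, 10.5 to 34.1% in tail bulge, 0 to 0.854% in tongue LRC, 0 to 9.73% in palate LRC 0.358 to 4.92% for tail minus tongue and 32.7 to 82.1% in tail over back basal layer. With limma on log2(TPM + 1), the share of called genes that were higher was 37.1%, against 57.8%, in tail bulge, 25%, against 51.3%, in palate over tail, 71.6%, against 50.5%, in tongue over palate, 78%, against 67.8%, in tail LRC, 79.8%, against 67.3%, for tail minus tongue, 47.8%, against 59.6%, in back bulge and 28.5%, against 44.4%, in back spinous LRC. TPM was not rescaled in those fits, and medians over all genes were 0.19 in tail LRC, -0.15 in tail bulge, -0.23 in palate over tail, 0.12 in tongue over palate and 0.28 for tail minus tongue. Directions turned only in values that no test called. Krt35 in tail LRC had 0.036, 0.028 and 0.036 with limma on log2(TPM + 1), log2(TPM + 0.1) and without a filter, and -1.24 to 0.84 in leave-outs. Krt90 in palate LRC had -2.44 to 0.038 in leave-outs, the highest without LRC library 2. In back basal LRC Krt35 had -0.13 with limma on log2(TPM + 0.1) and -1.23 to 1.51 in leave-outs. Back spinous over basal layer gave Krt31 0.12 with limma on log2(TPM + 1), filtered or not, 0.63 on log2(TPM + 0.1) and -1.01 to 0.15 in leave-outs, and Krt35 -0.15 to 1.76. Leave-outs gave Krt31 -0.33 to 1.65 in back spinous LRC, -0.80 to 0.30 in tongue over tail and -0.34 to 1.81 in tail minus tongue. Krt35 in tail minus back had 0.16 with limma on log2(TPM + 0.1) and -2.21 to 0.79 in leave-outs. Krt35 in palate over tail lost its call with limma on log2(TPM + 1) without a filter (adjusted p = 0.0918). In tail over back it lost it in all 3 limma fits, with 0.28 on log2(TPM + 1), filtered or not, and 0.80 on log2(TPM + 0.1), against 1.97 with edgeR (adjusted p = 0.281 to 0.494). DESeq2 gave neither an unadjusted nor an adjusted p for Krt36 in tail LRC (log2 fold change -3.14) and tail bulge (-2.88), so it made no call there. Why it gave none was not tested. Depth limits Krt31, Krt86 and all members but Krt35 in back skin.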
